A study of Mus musculus with 6 samples.

Results

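Genes of the integrated stress response, the programme run by the transcription factor ATF4, were compared between mouse liver tumours and the liver beside them. The set holds 10 genes: Atf4 itself, the related factors Atf5 and Ddit3, the regulators Trib3, Chac1, Sesn2 and Nupr1, and the amino acid synthesis genes Asns, Psat1 and Phgdh. They were taken by platform gene symbol, with every probe that carries a member's symbol, which gave 18 probes out of 45281 on the array and 10 genes out of 19057. Expression was read on 1-colour Illumina bead arrays, in which the brightness of a probe follows the amount of the matching transcript. All animals were C57BL/6J mice that received 3e+10 particles of the AAV-Rian-CMV vector by the superficial temporal vein on the day after birth. The 3 tumours and the 3 adjacent livers were taken at 6 months of age. By the sample titles they form pairs from animals 1293, 1309 and 1316, although another label gives the tumour of 1316 a different number. The main fit leaves the pairing out, so its p-values rest on the spread between animals within each tissue. Limma moderates that spread with the spread of all probes. A fit with the animal as a block is given as an alternative. Without both arrays of 1316, 7 of the 8 member probes called below still passed, all but Atf5. The adjacent livers carry the same vector exposure as the tumours, and liver of uninjected mice was not analysed here.

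In the integrated stress response, kinases that sense amino acid shortage, unfolded protein, haem shortage or viral RNA phosphorylate the translation factor eIF2. Most protein synthesis then slows, while the ATF4 messenger, which carries upstream reading frames in its leader, is translated more. ATF4 therefore can act without a change in its own messenger, and it induces genes for amino acid supply, for redox balance and, with prolonged stress, for cell death. In liver it takes part in the response to protein shortage and to mitochondrial and endoplasmic reticulum stress.

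ATF4 pairs with C/EBP proteins on a composite site whose core reads TGATGNAA. The RefSeq promoter table (build GRCm38.p6) gives 12 start sites for the 10 genes, each with 250 bases before and 50 after the start. The core, searched on both strands, was found at 4 of them, belonging to Asns, Nupr1, Chac1 and Trib3. Over all 32817 promoters of that length 3.97% hold it. The endoplasmic reticulum stress element, CCAAT and CCACG parted by 9 bases, was searched on both strands too and was found at 0 of the 12, against 0.119% of all promoters. A match is a description of the letters and no sign of binding. The 250 bases before the start are shown for the first 3 of these genes, since Asns and Nupr1 had the highest fitted differences of the set and Chac1 had none that passed. Capitals mark the core on either strand, with its first base at -23 for Asns, -110 for Nupr1 and -193 for Chac1. In Trib3 the match starts 15 bases into the transcript, and 30 bases around it are shown.
Asns, chr6:7693210-7693459, strand -: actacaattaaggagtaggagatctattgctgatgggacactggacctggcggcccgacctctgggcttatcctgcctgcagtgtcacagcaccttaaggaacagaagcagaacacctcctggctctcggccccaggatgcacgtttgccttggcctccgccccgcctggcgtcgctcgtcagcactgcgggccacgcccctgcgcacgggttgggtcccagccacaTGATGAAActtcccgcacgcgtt
Nupr1, chr7:126625471-126625720, strand -: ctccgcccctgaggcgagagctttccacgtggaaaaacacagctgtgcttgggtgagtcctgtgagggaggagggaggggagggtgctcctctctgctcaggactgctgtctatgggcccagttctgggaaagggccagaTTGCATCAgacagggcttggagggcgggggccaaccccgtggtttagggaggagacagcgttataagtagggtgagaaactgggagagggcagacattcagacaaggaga
Chac1, chr2:119350992-119351241, strand +: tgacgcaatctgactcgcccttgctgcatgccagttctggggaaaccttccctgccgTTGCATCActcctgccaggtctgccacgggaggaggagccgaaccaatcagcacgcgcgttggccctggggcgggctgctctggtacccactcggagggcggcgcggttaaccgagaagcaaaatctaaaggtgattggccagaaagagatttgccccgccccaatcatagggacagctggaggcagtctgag
Trib3, chr2:152344028-152344057, strand -: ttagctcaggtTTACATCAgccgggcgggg

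Among the members, 6 of 10 genes rose in tumours on at least 1 probe and 0 fell. Nupr1, Asns, Ddit3, Trib3 and Psat1 rose by more than 1 log2 unit and Atf5 by less. Atf4, Chac1, Phgdh and Sesn2 had no probe that passed. By probe, 8 of 18 were called higher, or 44.4%, where 2.30% of all probes on the array were called higher and 1.15% lower (adjusted p under 0.05 over all probes, limma). The members were chosen with earlier results of these data known, so this excess is no independent support for a rise. In a fit of the 14026 probes above background on at least 3 arrays, 1199 were called in either direction. Of the member probes, 7 were called there. The median difference was 0.68 log2 units over the 18 probes. Taking for each gene the probe of highest mean signal, it was 1.17 over the 10 genes and -0.01 over all genes. Each tumour lay above each adjacent liver on 10 of 18 probes, or 55.6%, as it did on 9.20% of all probes. Each tumour lay below each liver on 0 of 18, against 9.73% of all probes. In bulk tissue a change in the share of a cell type cannot be told apart from a change in RNA per cell.

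Background was estimated on each array as a raw signal of 168.5 to 191.7, which is a normalized log2 signal of 6.84 to 6.97. Of the 18 probes, 9 were above it on all 6 arrays and 3 on none. The precision of all values is limited by 3 arrays per group. The tissue label was checked on 7 hepatocyte markers, of which 5 were above background on every array, among them Apoa1, Ttr, Apob and Cps1. The Alb probe was above it on 3 adjacent arrays and 2 tumour arrays and fell by 0.84 (SE 0.15, adjusted p = 0.00835, limma). Its raw signals were only 167.6 to 271.3, against 41167.4 to 50006.4 for Ttr. The Alb call therefore rests on signals near background, and no change of the Alb transcript is read from it. Fgb was below background on all 6. Cps1, a urea cycle enzyme gene, rose by 0.59 (SE 0.14, adjusted p = 0.0436), and the other 5 were not called. Over the markers of immune (6 measured), endothelial (6), stellate (7), biliary (4) and red blood cells (3), none was called without a block. With the animal as a block 2 were called: Acta2, of contractile stellate cells and smooth muscle, with a difference of 1.17 (SE 0.24 with the block, adjusted p = 0.0163, limma; 0.146 without), and the endothelial marker Lyve1, at 0.59 (SE 0.13, adjusted p = 0.0217; 0.275 without), each higher in 3 of 3 animals. Over all genes, the block called 1461 of 19057. In the stellate and endothelial lists, Lrat (stellate) differed by -0.56, Stab2 by -0.34 and Clec4g by -0.47 (both endothelial), and none was called. Col3a1, of the stellate list, differed by 0.51, with adjusted p = 0.0610 (limma) without a block, 0.0552 with it and 0.0482 with its random form. The list medians were -0.09 for stellate and -0.04 for endothelial markers. The Kupffer cell marker Clec4f differed by -1.46 (SE 0.56, adjusted p = 0.231, limma, no block). Within animals 1293, 1309 and 1316 its difference was -1.03, 0.13 and -3.49. The list means of log2 signal ran from 8.24 to 9.01 in adjacent liver and 7.78 to 8.60 in tumours for immune cells and from 7.09 to 7.15 and 7.04 to 7.42 for stellate cells. The biliary markers Krt19, Krt7 and Epcam were below background on all arrays. The part of cell composition in the differences was not tested.

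**Figure D1:**
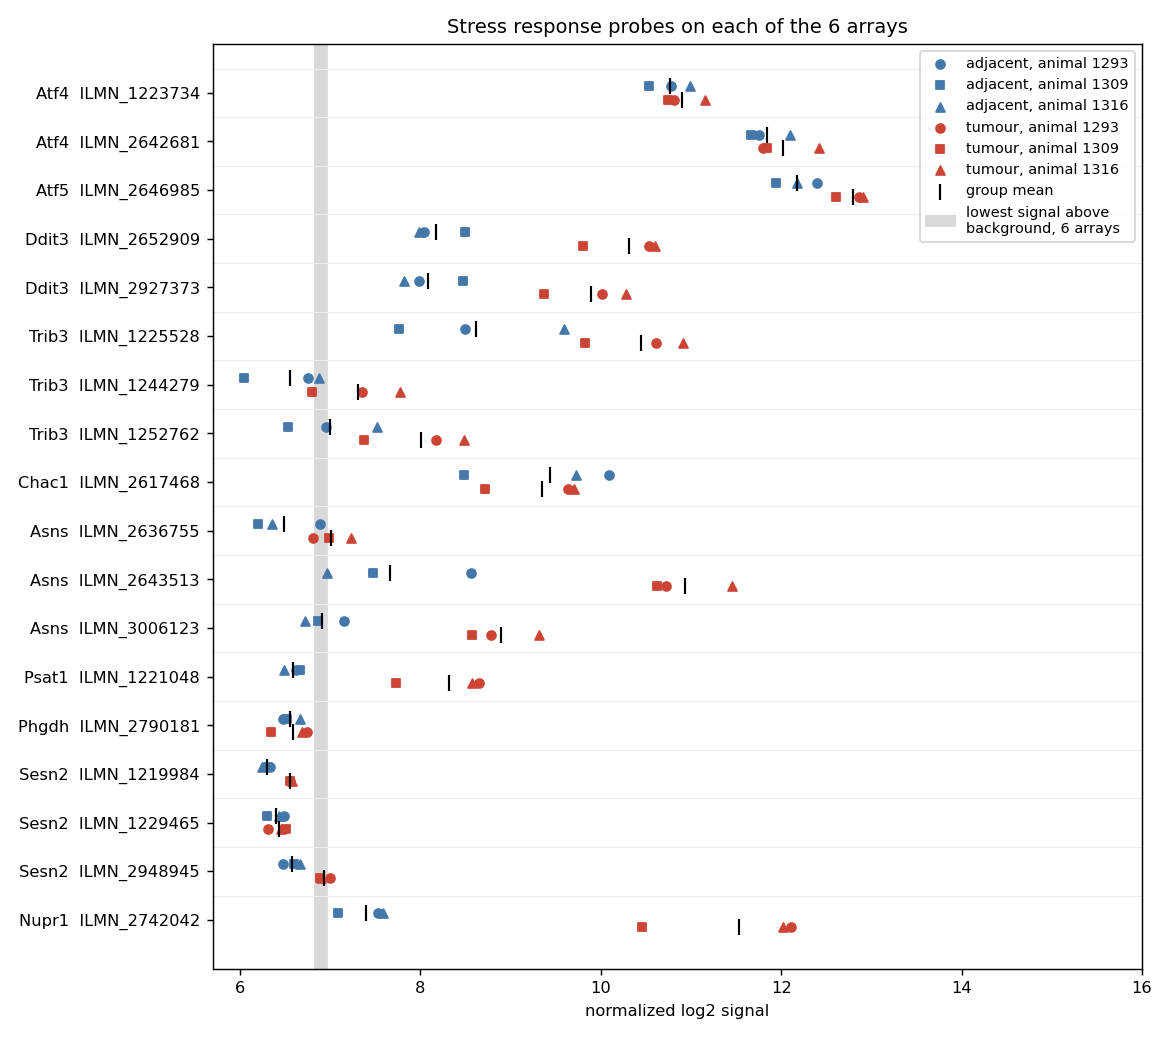
Normalized log2 signal of the 18 probes (rows) on each of the 6 arrays, with adjacent liver in blue, tumours in red, a marker shape per animal and a black tick at each group mean; the grey band spans the lowest signal above background on the 6 arrays. Tumours and adjacent livers stand clear of each other for Nupr1, both Ddit3 probes, Psat1 and the 2 brighter Asns probes, and overlap for Atf4 and Chac1.

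Atf4 encodes the transcription factor at the head of the response. Its brighter probe, ILMN_2642681, read 11.76, 11.66 and 12.10 in the adjacent livers of animals 1293, 1309 and 1316, and 11.80, 11.85 and 12.42 in their tumours (log2 signal, as for all levels here). The other, ILMN_1223734, read 10.78, 10.54 and 10.99 beside the tumours and 10.81, 10.74 and 11.16 in them. On both probes animal 1316 was highest in either tissue, and the groups overlapped. The differences were 0.18 (SE 0.18, adjusted p = 0.754, limma) and 0.13 (SE 0.16, adjusted p = 0.804), with 95% intervals from -0.21 to 0.58 and from -0.21 to 0.48. A rise of the Atf4 messenger above 0.58 log2 units thus lies outside both intervals. Without the tumour of 1316 the brighter probe's difference was -0.016.

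The genes most like Atf4 over the 6 arrays were found by Pearson's r with its brighter probe, among 10184 named probes above background on every array. They were Slc6a12, a carrier of betaine and GABA (r = 0.996), Washc1 (0.990), Mtdh (0.989), Ddx20 (0.987) and Rilpl2 (0.987). Their tumour differences ran from 0.09 to 0.20 and none was called. These r values rest on 6 arrays that share animals. They were picked as the highest among 10184 probes, and whether they exceed chance was not tested.

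Atf5, a factor related to ATF4 and under similar translational control, read 12.39, 11.95 and 12.18 in adjacent liver and 12.86, 12.61 and 12.90 in tumours. All 3 tumours were above all 3 livers, by 0.47 to 0.72 within an animal. The difference of 0.62 (SE 0.15, adjusted p = 0.0421, limma) is the smallest of those called. It passed in 6 of 15 alternative settings, with adjusted p from 0.0175 to 0.181. Leaving out the adjacent liver of 1309 or 1316, or the tumour of 1293 or 1316, ended the call (adjusted p = 0.160, 0.126, 0.171 and 0.142). With every array kept it ended with an offset of 16 (adjusted p = 0.181, limma) and without background correction (0.0524). It also ended with the authors' values (0.0528), with the dim-probe filter (0.0507) and with probes averaged (0.0595).

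Ddit3 encodes CHOP, a C/EBP-family factor that ATF4 induces and that promotes cell death under lasting stress. Probe ILMN_2652909 read 8.04, 8.50 and 7.98 in adjacent liver and 10.54, 9.80 and 10.60 in tumours. Its companion ILMN_2927373 read 7.98, 8.47 and 7.82, and 10.01, 9.38 and 10.28. Every tumour was well above every liver. Animal 1309 had the highest liver and the lowest tumour on both probes. The differences were 2.14 (SE 0.21, adjusted p = 1.17e-04, limma) and 1.80 (SE 0.22, adjusted p = 7.90e-04), or 4.41-fold and 3.48-fold, and both passed in all alternatives run (15 and 14).

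Trib3 encodes a pseudokinase, induced by ATF4 and CHOP, that binds AKT and ATF4 and dampens both. Its brightest probe, ILMN_1225528, read 8.50, 7.76 and 9.59 in adjacent liver and 10.62, 9.82 and 10.92 in tumours. The groups did not overlap, but the liver of 1316 came within 0.23 log2 units of the tumour of 1309. The adjacent livers spread more (SD 0.92) than the tumours (SD 0.57, n = 3 each). The difference was 1.83 (SE 0.38, adjusted p = 0.0206, limma), and adjusted p = 7.27e-05 with the animal as a block. The call ended in 8 of 15 alternatives, which include leaving out the adjacent liver of 1293 or 1309 (adjusted p = 0.0639 and 0.0732) or the tumour of 1293 or 1316 (0.111 and 0.0592). With every array kept it ended with a variance trend and limma's robust option together (adjusted p = 0.303, limma) and without background correction (0.0784). It also ended with the authors' values (0.0789) and with probes averaged (0.108).

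The 2 dimmer Trib3 probes behaved alike. ILMN_1252762 read 6.95, 6.54 and 7.52 in adjacent liver, above background in 1 of 3, and 8.18, 7.37 and 8.48 in tumours. Its difference of 1.01 (SE 0.28) did not pass (adjusted p = 0.0757, limma) without the block and passed with it (0.00132). ILMN_1244279 was below background in every adjacent liver and above it in 2 of 3 tumours, so no fold is given. It had an adjusted p of 0.156, and 0.00688 with the block. On all 3 probes each tumour was above its own adjacent liver. With the block, 10 of 18 member probes were called, where 2.88% of all probes were called higher.

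Chac1 encodes an enzyme that breaks down glutathione and is induced by ATF4 and CHOP in cells under stress. Its probe read 10.09, 8.48 and 9.73 in adjacent liver and 9.64, 8.72 and 9.71 in tumours. In both tissues animal 1309 was lowest, and the groups overlapped. The difference was -0.08 (SE 0.36, adjusted p = 0.959, limma), with a 95% interval from -0.86 to 0.69. Within animals it ran from -0.46 to 0.23. With the animal as a block the SE was 0.15 and the adjusted p 0.882 (limma).

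Sesn2 encodes sestrin 2, a leucine sensor that restrains the growth kinase mTORC1. Of its 3 probes, ILMN_1219984 and ILMN_1229465 were below background on all arrays. The third, ILMN_2948945, read 6.47, 6.60 and 6.67 in adjacent liver, below background, and 7.00, 6.89 and 6.90 in tumours, just above it. Each tumour was above each liver, but the bound formed at the background level is under 1, so no fold can be read. None of the 3 passed (adjusted p = 0.325, 0.967 and 0.176, limma).

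Nupr1 encodes a small chromatin-associated stress protein that is induced in injured tissue and is a target of ATF4. It had the largest difference of the set. Raw signals were 225.1, 198.2 and 262.6 in the adjacent livers of 1293, 1309 and 1316, and 3984.0, 1580.9 and 4804.4 in their tumours. On the normalized log2 scale these were 7.53, 7.09 and 7.59 against 12.11, 10.46 and 12.02. The lowest tumour stood 2.87 log2 units above the highest liver. The fitted difference was 4.12 (SE 0.34, adjusted p = 2.84e-05, limma), or 17.4-fold, the 19th highest of the 45281 probes. It passed in all 15 alternatives, from 3.69 to 4.66.

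Asns encodes asparagine synthetase, which makes asparagine from aspartate and glutamine and is a classic ATF4 target. Probe ILMN_2643513 read 8.57, 7.48 and 6.97 in adjacent liver and 10.72, 10.62 and 11.45 in tumours. ILMN_3006123 read 7.16, 6.87 and 6.72, above background in 1 of 3 livers, and 8.79, 8.58 and 9.32. Both separated the groups. On the first, animal 1293 had the highest liver, 1316 the lowest liver and the highest tumour, and the differences within animals were 2.15, 3.14 and 4.48. The fitted differences were 3.26 (SE 0.33, adjusted p = 1.56e-04, limma) and 1.98 (SE 0.19, adjusted p = 8.89e-05), the first being 9.58-fold. Each passed in all alternatives run.

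The last Asns probe, ILMN_2636755, was below background in all adjacent livers and above it in 2 of 3 tumours. It did not pass (adjusted p = 0.171, limma), and no fold is given. Averaged over its probes, Asns rose by 1.92 (adjusted p = 0.00561 over genes).

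Serine is made from a glycolytic intermediate by PHGDH, PSAT1 and PSPH in turn, and the first 2 are members here. Psat1, the aminotransferase of the second step, read 6.62, 6.67 and 6.49 in adjacent liver, below background on all 3 arrays, and 8.65, 7.73 and 8.57 in tumours, above it on all 3. It was at least 2.59-fold higher in tumours, with a fitted difference of 1.72 (SE 0.21, adjusted p = 6.40e-04, limma) that passed in all 15 alternatives. Phgdh, the dehydrogenase of the first step, was below background on all 6 arrays, with values from 6.35 to 6.75, and no fold can be read from its 1 probe (adjusted p = 0.949). Psph, named here after its values were seen, was also below background on all arrays. The rise therefore was measured at 1 of the 3 steps, and the other 2 could not be measured at this signal.

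**Figure D2:**
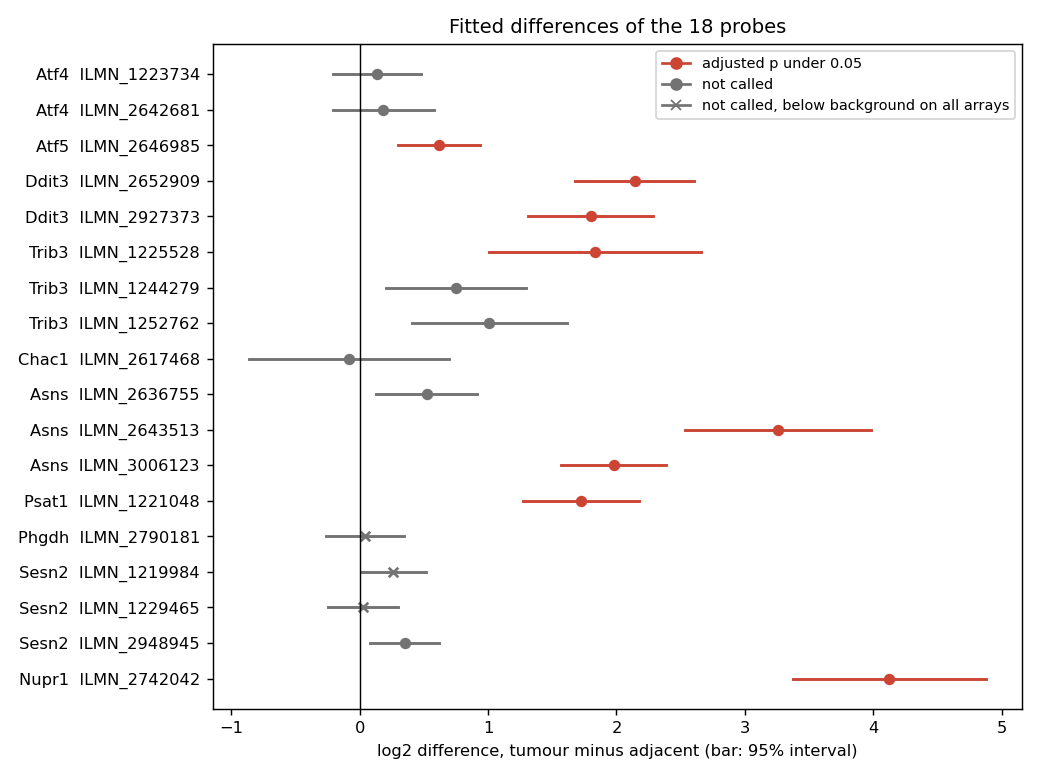
Fitted log2 difference, tumour minus adjacent liver, with its 95% interval for each of the 18 probes; red marks an adjusted p under 0.05 and a cross marks probes below background on all arrays. The 8 called probes lie between 0.62 and 4.12, while the intervals of Atf4 and Chac1 include 0.

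The 3 tumours did not carry the rise equally. On all 8 called probes the lowest tumour value was that of animal 1309, as it was for 83.6% of all probes called higher on the array. Set against its own liver, animal 1309 had the smallest difference on 4 of the 8, 1293 on 3 and 1316 on 1. Animal 1316 had the largest on 6 and 1293 on 2. Over all probes called higher, 1309 had the smallest difference for 76.5% and 1316 the largest for 70.9%. By gene, the difference of Ddit3 in 1309 was 1.30 against 2.50 in 1293 and 2.62 in 1316, and that of Psat1 was 1.06 against 2.03 and 2.08. Trib3 went otherwise, with 2.12 and 2.06 in 1293 and 1309 and 1.32 in 1316. Asns and Atf5 were smallest in 1293. There the brightest Asns probe differed by 2.15, against 3.14 in 1309 and 4.48 in 1316. Atf5 differed by 0.47, against 0.66 and 0.72. No test of differences between animals is possible with 1 pair per animal.

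**Figure D3:**
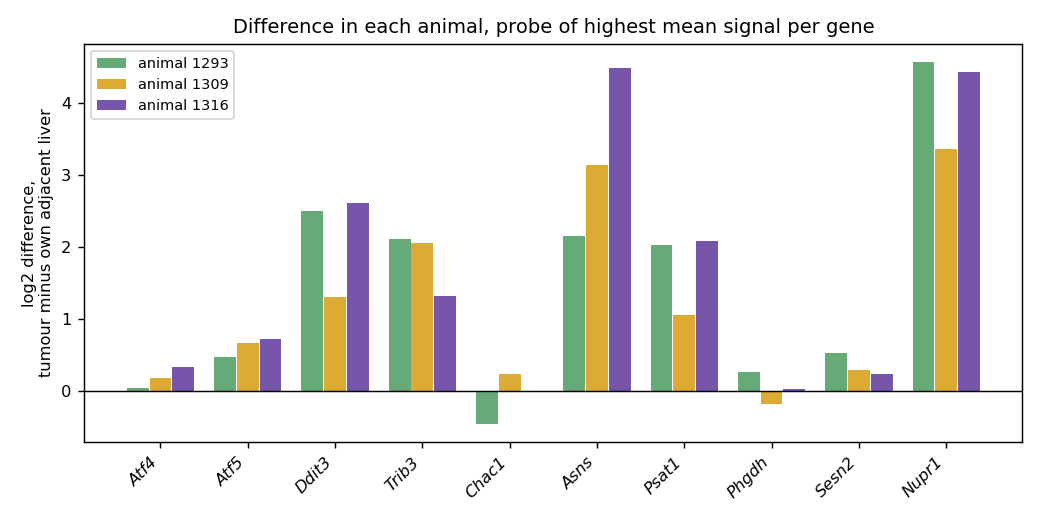
Log2 difference between each tumour and its own adjacent liver (bars, 1 per animal), for the probe of highest mean signal of each of the 10 genes; pairs follow the sample titles. Bars of Ddit3, Trib3, Asns, Psat1 and Nupr1 are all above 1, while those of Chac1 and Phgdh lie on both sides of 0.

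Genes around the members in the pathway were read from 9 lists, each gene by its probe of highest mean signal. Of 108 genes measured, 19 were called higher, or 17.6%, and 1 lower, where 3.64% of all genes were called higher and 1.56% lower (limma). The lists too were chosen with earlier results of these data known. Of the 108 genes, 85 were above background on at least 3 arrays, as were 8298 of all 19057 genes. The median difference over the 108 was 0.10. Their count of 20 fell to 11 without the adjacent liver of 1316 and to 11 without the tumour of 1293, and was 28 without the tumour of 1309. With the animal as a block it was 26, of which 23 were higher and 3 lower. Over all 19057 genes the block called 869 higher and 592 lower.

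Upstream of ATF4, 0 of 11 measured genes for the eIF2 kinases, eIF2B and the eIF2 phosphatase subunits passed (limma). Of all genes, 3.64% were called higher and 1.56% lower. Of these 11, 4 had an unadjusted p under 0.05, as had 3642 of all 19057 genes. The smallest p of the 11 was that of Eif2b2, a subunit of the eIF2 exchange factor, at 0.49 (SE 0.13, adjusted p = 0.0718). Among 10 bZIP partners of ATF4, 2 rose. Atf3, a stress-induced repressor, was at least 2.25-fold higher (adjusted p = 0.0035), and Batf3, a factor best known from dendritic cells, at least 2.26-fold (adjusted p = 0.0055). Both were below background in every adjacent liver, and both had their lowest tumour in 1309. The other 8, among them the C/EBP genes, did not pass.

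Of 17 further stress targets of ATF4 and CHOP, 3 rose and 0 fell. Ddit4, an inhibitor of mTORC1, read 8.67, 8.14 and 7.19 in adjacent liver and 10.63, 10.46 and 10.79 in tumours, a difference of 2.63 (SE 0.28, adjusted p = 2.32e-04, limma). The tumours lay close together and the livers did not. Vldlr, a lipoprotein receptor gene, was at least 2.60-fold higher on its brightest probe, and 3 of its 6 probes were below background on all arrays. Sqstm1, whose protein p62 carries cargo to autophagy, rose by 0.94 (SE 0.19). The median of this list was 0.07. With the animal as a block 4 were higher and 1 lower: the block added Gadd45a, a growth arrest gene, at 0.77 (adjusted p = 0.0163, limma; 0.162 without) and Herpud1, of endoplasmic reticulum protein degradation, at -0.96 (adjusted p = 0.0356; 0.0586 without), which was lower in 3 of 3 animals.

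Enzymes of amino acid and folate metabolism gave several increases. Of 10 serine, glycine and folate-linked genes, 2 rose, namely Gldc of the glycine cleavage system by 1.52 (SE 0.24, adjusted p = 0.00445, limma) and the mitochondrial folate enzyme gene Mthfd2 by 1.48 (SE 0.25, adjusted p = 0.00674). The other Mthfd2 probe read 0.63 and did not pass. Of 9 genes of proline, asparagine, alanine and transsulfuration metabolism, 3 rose. They were Cth by 1.74 (SE 0.23) and Cbs by 1.21 (SE 0.19), which make cysteine from homocysteine, and the alanine aminotransferase gene Gpt2 by 0.72 (SE 0.18, adjusted p = 0.0458). The second Cth probe was below background throughout. The block added Gpt, the other alanine aminotransferase gene, at 0.58 (adjusted p = 0.0335; 0.0920 without).

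Of 10 amino acid transporter genes, 4 rose and 0 fell (limma). Slc7a11, the cystine carrier subunit, read 6.32, 6.26 and 6.27 in adjacent liver, below background, and 7.86, 7.95 and 9.14 in tumours, and was at least 2.59-fold higher (adjusted p = 0.0011). Its other 4 probes ran from -0.10 to 0.61 and did not pass. All but the probe at 0.61 were below background on all arrays. That probe was at least 1.21-fold higher, with adjusted p = 0.0783 (limma), and 0.0375 with the animal as a block. Slc3a2, the gene of the partner chain of Slc7a11, rose by 1.03 (SE 0.17). Slc1a4, a carrier of alanine, serine and cysteine, rose by 2.05 (SE 0.30). Slc3a2 and Slc1a4 were each above background in 1 of 3 adjacent livers. The block added the glycine carrier gene Slc6a9, at -1.18 (adjusted p = 0.0286; 0.121 without), lower in 3 of 3 animals.

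Of 14 genes for cytosolic aminoacyl-tRNA synthetases and the tRNA exporter, 2 rose and 1 fell (limma). Gars differed by 0.77 (SE 0.15) and Aars by 0.55 (SE 0.12), while Tars fell by 0.76 (SE 0.18, adjusted p = 0.0371). The other Tars probe read 0.24 and did not pass. The block added Sars at 0.58 (adjusted p = 0.0251; 0.145 without) and Vars at 0.53 (adjusted p = 0.0347; 0.0840 without). Among 8 genes of mitochondrial protein folding and stress, 3 rose, the chaperone genes Hspa9 by 0.68 (SE 0.14), Hspd1 by 0.61 (SE 0.13) and Hspe1 by 0.64 (SE 0.16, adjusted p = 0.0444).

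Chaperones and factors of the ATF6 and XBP1 branches, which answer unfolded protein in the endoplasmic reticulum beside the ATF4 branch, gave 0 calls among 19 genes (limma). Of all genes, 3.64% were called higher and 1.56% lower, so few calls would be met in a list of this size. Of the 19, 3 had an unadjusted p under 0.05, as had 3642 of all 19057 genes. The list median was -0.18. None of the 19 was higher in the tumour in all 3 animals, while 3885 of all 19057 genes were. The smallest p of the list belonged to Xbp1, at -0.39 (SE 0.14, adjusted p = 0.186). With the animal as a block 0 were called. Whether this list differs from the 10 members was not tested.

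**Figure D4:**
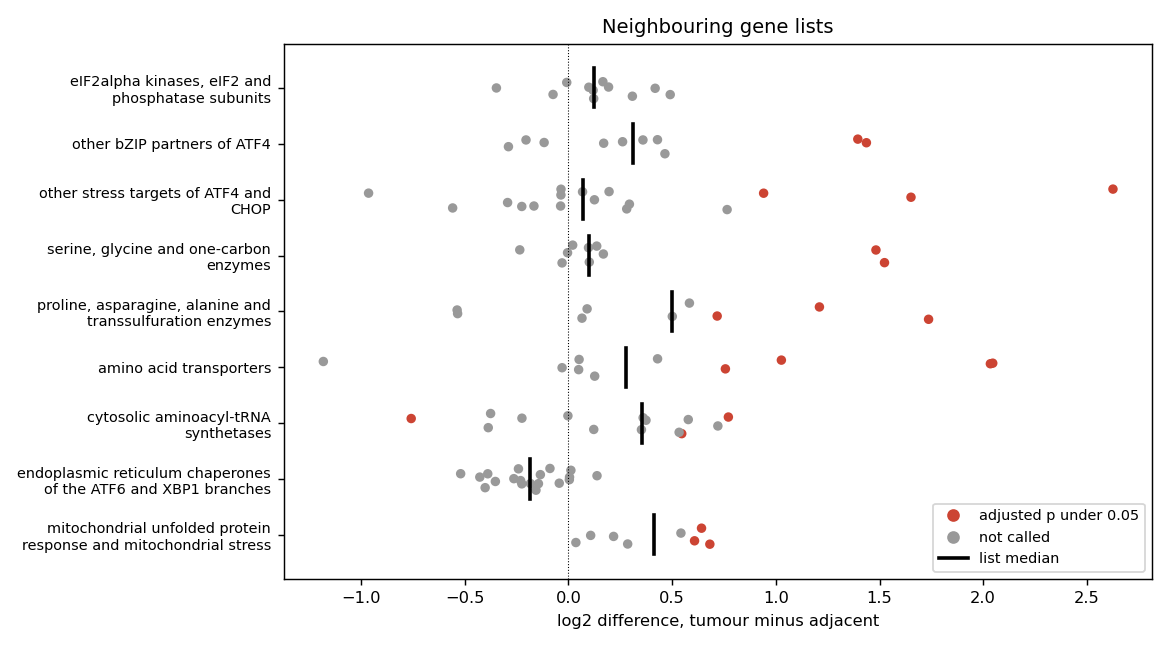
Log2 difference, tumour minus adjacent liver, of the 108 genes of 9 lists around ATF4 (points, spread vertically at random), with red for an adjusted p under 0.05 and a black bar at each list's median. Calls reach 2.63 among stress targets and 2.05 among amino acid transporters. None lies in the lists of eIF2 factors (11 genes) and endoplasmic reticulum chaperones (19 genes).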

How the data were processed

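Raw probe intensities of 6 arrays, deposited by the authors without background subtraction or normalization as the values show, were the main data. The authors' deposited log2 table of the same arrays, quantile-normalized as its values show, served as an alternative. GenomeStudio is named per the submitters' processing notes, with no role or version. Intensities were corrected with normexp (offset 50), quantile-normalized and put on the log2 scale in limma 3.58.1 (R 4.3.3); the offset understates changes near background. Background was the mode of an array's log2 signals plus 3 mirrored SDs. Where a gene was below it on all arrays of a group, "at least N-fold" sets the other group's mean against the higher of the probe's own and the lowest signal above background.

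Gene symbols are those of the array's annotation after a lookup by gene identifier (34885 probes with 1 symbol, 18 with several, 10378 not listed; 0 changed). Tumours and adjacent livers were fitted with lmFit and eBayes over all 45281 probes with Benjamini-Hochberg adjustment at 0.05, without a block; 1560 probes and 992 genes were called. By the titles same-numbered samples share an animal, and their deviations from group means correlated at 0.41, 0.25 and 0.09 over 14026 probes; the block used the animal (statmod 1.5.0 for its random form). Named genes were all members and the 5 genes most like Atf4. From each list up to 3 higher and 2 lower called genes were named by smallest p (otherwise the smallest p). Added after their values were seen were list and marker genes whose call the block changes, with Clec4f, Lrat, Col3a1, Stab2 and Clec4g. Members and lists were chosen with earlier results of these data known. The fit was also run on simulated data, drawn as independent normal values per probe with added differences. They held no animal pairing and skipped background correction and normalization, so they check neither. Alternatives were other background corrections and scalings, a dim-probe filter, the block, probe averaging and leaving out each array. A further alternative was a variance trend together with limma's robust option, and neither was run alone.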

Additional observations from a re-analysis of the deposited data

How the results depend on the processing

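Of 257 comparisons of a member probe with an alternative setting, 226 kept direction and side of the threshold, 17 lost a call, 5 gained one and 9 changed sign, none of these 9 with a call. The called member probes numbered 8, and between 6 and 10 when 1 array was left out; the member genes numbered 6, and between 4 and 6. The signs that turned were those of Chac1 (0.064 with median scaling), and, when 1 array was left out, of Chac1 (-0.55 to 0.25), the brighter Atf4 probe (-0.016 to 0.32), Phgdh (-0.037 to 0.16) and Sesn2 probe ILMN_1229465 (-0.031 to 0.082). Over the whole array 1560 probes and 992 genes were called. With an offset of 16 these were 787 and 506, without background correction 1019 and 657, from the authors' processed log2 values 1012 and 653, and with probes averaged 537 genes. Leaving out 1 array gave 670 to 2510 probes and 448 to 1582 genes; without the tumour of 1309 the count was highest and without that of 1293 lowest. Of the list genes, 20 were called, 11 with an offset of 16, 13 with probes averaged, and 11 to 28 with 1 array left out. Leaving out both arrays of animal 1316, whose labels conflict, was chosen after seeing the data and gave 618 probes, 401 genes and 9 list genes, and 7 member probes. Among called genes 70.0% were higher, 85.3% with median scaling, 88.5% with an offset of 16, 80.5% without background correction, 80.7% from the authors' values, 59.5% with the animal block and 58.2% to 89.7% with 1 array left out, lowest without the tumour of 1309. With the paired fit (animal as a replicate block) 2325 probes, 1461 genes and 10 member probes were called, and 26 list genes; it changed no call among members other than those of the 2 dimmer Trib3 probes. Counts of probes and of member probes have no value under probe averaging. With background at 2 SDs, 15 member probes were above it on all 3 tumour arrays, and 13 at 3 SDs. Signals near background limit Phgdh, Sesn2 and Psph.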
